A study of Sus scrofa and Bos taurus with 31 samples.

Results

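The HOX gene clusters of the pig were examined in 16 lists of accessible chromatin. Members were all protein-coding genes whose symbol in the RefSeq annotation of Sscrofa11.1 is HOXA, HOXB, HOXC or HOXD followed by a number, which gave 36 of 20674 protein-coding genes. HOXA held 11 of them, HOXB 8, HOXC 9 and HOXD 8. HOXB4, HOXB9 and HOXD4 were not analysed here. Each gene was measured with 2 kb on either side, and each cluster was also measured whole, from its first to its last HOX gene with the same flanks.

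HOX genes encode homeodomain transcription factors that give segments along the head-to-tail axis of the embryo their identity. Within a cluster the genes lie broadly in the order in which they are used along the axis. Low paralog numbers lie at the 3′ end and are used towards the head. High numbers lie at the 5′ end and are used towards the tail. The forebrain forms in front of the domain where HOX genes are active, the hindbrain uses low paralog numbers only, and silent HOX chromatin is held by Polycomb complexes over CpG-rich DNA.

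The study carried out ATAC-seq, which marks accessible DNA by letting a transposase insert adapters into it, on cryopreserved nuclei of 8 tissues from the same 2 pigs. The animals, P348 and P350, were castrated male Yorkshire littermates aged 6 months, and the labels give no treatment and no altered genotype. Adipose, liver, lung, skeletal muscle and spleen are called body tissues below (10 libraries), and cerebellum, cerebral cortex and hypothalamus brain tissues (6 libraries). The body site of the adipose and muscle samples is not given in the labels, so their position along the axis is not known from them. Tissue samples are mixtures, so an element open in fewer cells and an element less open in every cell cannot be told apart in any value below.

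Each library has its own list of peaks, the stretches where the authors' caller found reads above the local background. A list held 99960 to 217308 peaks covering 64.1 to 156 Mb. The unit used here, peak bases per Mb, is the number of bases of a window that lie in peaks for each Mb of bases in all peaks of that library. The lists give no read counts, and the read numbers that the study lists for its libraries were not weighed here. The labelled tissues were checked with 3 marker genes each, measured with 10 kb either side. All 3 markers had a peak in both animals of their own tissue for all 8 tissues, and their summed level ranked first among the tissues for cerebral cortex, hypothalamus, liver and skeletal muscle, second for cerebellum, lung and spleen, and behind liver and another tissue for adipose.

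A pair of brain libraries stood apart from the other 4 in the HOX clusters. The hypothalamus library of P348 held 587 peak bases per Mb over the 4 cluster spans, against 217 in the hypothalamus of P350. The cerebellum library of P350 held 296, against 85.8 in the cerebellum of P348, and the cortex libraries held 160 and 189. Body libraries lay between 425 and 803. The summed level of 7 fibroblast markers was 235 peak bases per Mb in the hypothalamus of P348 and 179 to 259 in the other 4 brain libraries, and no fibroblast marker was at 0. For 5 leukocyte markers, with CD3E at 0, the sum was 102 in that library, 78.2 to 192 in the other 4 and 151 to 565 in the body. For 5 endothelial markers it was 226 against 179 to 246, and for 4 neuron markers 307 against 148 to 632. Body libraries held 210 to 336 for fibroblast, 139 to 303 for endothelial and 136 to 351 for neuron markers. The hypothalamus of P350 held 179 for fibroblast, 114 for leukocyte, 246 for endothelial and 377 for neuron markers. In the cerebellum of P350 the sums were 208 for fibroblast, 145 for leukocyte, 162 for endothelial and 241 for neuron markers. The cerebellum of P348 had 188, 78.2, 179 and 148 in the same order. The part of cell mixture in these libraries was not tested further. Results are given with and without the pair of the hypothalamus of P348 and the cerebellum of P350. This pair was set aside for its HOX values. A wider gap without it is partly fixed by that choice and is given as a description.

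To show what an open HOX element looks like, 200 bases of plus-strand sequence were taken from Sscrofa11.1 in the region of each cluster that was open in both animals of the most body tissues and in the fewest brain libraries. Regions were made by merging the peaks of the 16 libraries, and the stretch shown is that covered by the most body libraries outside annotated UTRs. Capitals mark CpG dinucleotides.

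HOXA, in a coding exon of HOXA5 and an intron of HOXA3, chr18:45430352-45430551, plus strand: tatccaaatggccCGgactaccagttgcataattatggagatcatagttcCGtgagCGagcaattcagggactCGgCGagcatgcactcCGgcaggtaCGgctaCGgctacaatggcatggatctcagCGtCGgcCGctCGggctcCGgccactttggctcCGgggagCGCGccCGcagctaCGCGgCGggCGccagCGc

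HOXB, between genes beside HOXB2, chr12:24796090-24796289, plus strand: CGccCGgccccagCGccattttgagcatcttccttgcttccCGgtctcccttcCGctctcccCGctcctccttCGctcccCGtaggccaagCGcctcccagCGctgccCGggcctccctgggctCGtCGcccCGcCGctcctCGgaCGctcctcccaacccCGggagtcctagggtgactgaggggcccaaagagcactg

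HOXC, in an intron of HOXC6, chr5:19230829-19231028, plus strand: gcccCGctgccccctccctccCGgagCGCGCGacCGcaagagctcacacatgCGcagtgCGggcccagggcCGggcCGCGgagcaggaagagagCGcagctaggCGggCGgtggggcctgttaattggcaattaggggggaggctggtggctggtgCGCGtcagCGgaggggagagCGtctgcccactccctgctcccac

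HOXD, in a coding exon of HOXD9, chr15:81924172-81924371, plus strand: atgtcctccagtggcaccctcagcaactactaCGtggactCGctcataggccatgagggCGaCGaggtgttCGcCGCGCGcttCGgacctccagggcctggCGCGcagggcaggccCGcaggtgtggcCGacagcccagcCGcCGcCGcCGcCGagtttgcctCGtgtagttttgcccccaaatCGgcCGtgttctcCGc

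The 4 stretches held 22, 18, 18 and 22 CpG. The whole regions held 164, 225, 111 and 163 CpG in 2050, 3493, 2076 and 1659 bp, at 59.3% to 67% GC. A further pair of regions was chosen after the values were seen. The first was open in all 16 libraries, with the highest mean fold of the 3 such regions, and is shown, where 15 of the 16 libraries overlap, with a minus-strand match to a core of the CTCF motif in capitals. CTCF is an insulator protein that separates domains within HOX clusters. The other had a peak in both skeletal muscle libraries and in no other library, with the highest fold of its kind, and is shown with an E-box in capitals, a site for the bHLH factors that include MYOD.

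HOXD, between HOXD12 and HOXD13, chr15:81898960-81899159, plus strand: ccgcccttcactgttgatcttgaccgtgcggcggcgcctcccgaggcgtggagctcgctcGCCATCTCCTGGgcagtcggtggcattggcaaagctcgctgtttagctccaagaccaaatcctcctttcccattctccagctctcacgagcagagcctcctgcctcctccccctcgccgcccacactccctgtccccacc

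HOXA, in an intron of HOXA3 and of LOC110257526, chr18:45453124-45453323, plus strand: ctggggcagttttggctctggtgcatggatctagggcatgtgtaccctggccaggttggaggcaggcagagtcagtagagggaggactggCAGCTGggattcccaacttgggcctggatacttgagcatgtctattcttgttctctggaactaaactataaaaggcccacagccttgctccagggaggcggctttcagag

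The muscle region held 3 CpG in 416 bp, at 48.8% GC. Most open HOX regions were rich in CpG. In the 300 bases around the most shared stretch of each region open in both animals of at least 1 tissue, HOX regions had a median of 27 CpG (quartiles 18 and 33, n = 85 regions) and all such regions of the genome had 5 (quartiles 2 and 9, n = 279947). Among regions open in all 5 body tissues the medians were 27 (n = 19) and 19 (n = 23078). Median GC content was 66.3% in HOX regions and 52% in the genome. Motifs were searched in the same 300 bases on both strands, with overlapping matches counted once for each region. The PBX-HOX pair site TGATNNAT was in 4 of 85 HOX regions (4.71%) and in 8.88% of those of the genome. The site TTTATNG, bound by HOX proteins of high paralog number and by CDX proteins, was in 11 (12.9%) and 9.27%. The core of the CTCF motif was in 5 (5.88%) and 4.67%, the E-box CAGCTG in 14 (16.5%) and 25.3%, and the MEF2 site in 0 and 3.64%. The stretch printed for the muscle region holds 1 E-box and also 1 match to TTTATNG on the minus strand, left in lower case. Among regions open in all 5 body tissues GC content was closer, 67% in HOX regions and 63.3% in the genome. There the PBX-HOX site was in 1 of 19 HOX regions (5.26%) and in 3.33% of those of the genome. TTTATNG was in 5.26% and 4.87%, the CTCF core in 10.5% and 11.3%, the E-box in 5.26% and 22%, and the MEF2 site in 0 and 2.04%. A match is a description of the letters and not of a bound factor.

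To ask whether the clusters as a whole were more open outside the brain, peak bases over each span were averaged within tissues and compared by an exact two-sided permutation test over the 56 choices of 3 of 8 tissues, which cannot give a p below 0.0179. All 4 clusters held more peak bases in the body on average. The ratio of body to brain was highest for HOXB and lowest for HOXC, and differences between clusters were not tested.

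**Figure D1:**
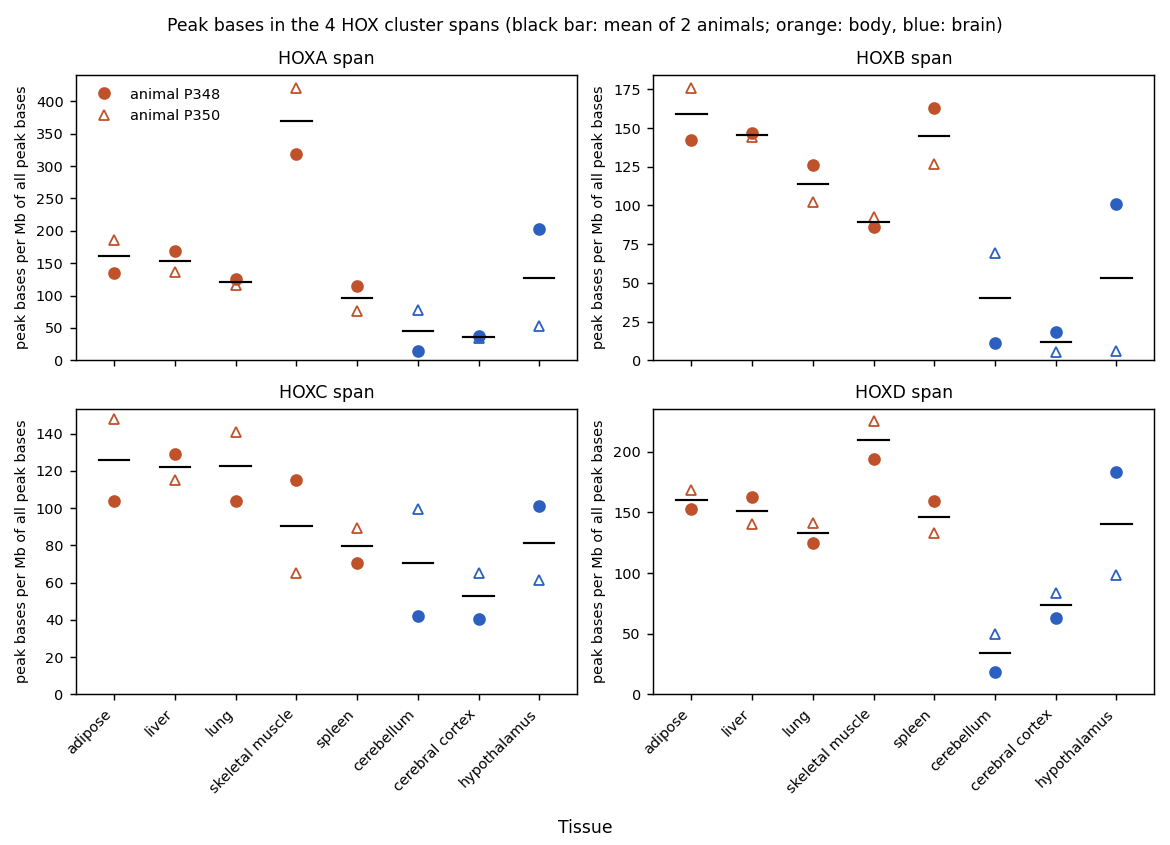
Peak bases per Mb of all peak bases (vertical axis) in the 4 cluster spans, by tissue (horizontal axis), with a circle for animal P348, an open triangle for P350 and a bar at their mean. Skeletal muscle reached 319 and 421 in HOXA and was the lowest body tissue in HOXB at 86.3 and 92.4, and the hypothalamus of P348 lay well above that of P350 in all 4 panels.

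The HOXB span (chr12:24784953-24950661) held 130 ± 28.3 peak bases per Mb in body tissues (SD, n = 5 tissues) and 35.1 ± 21.3 in brain tissues (SD, n = 3), a ratio of 3.72. Body libraries ranged from 86.3 to 176 with a median of 134, and brain libraries from 5.16 to 101 with a median of 14.7. The difference of 95.4 had the smallest p that the exact permutation test can give (p = 0.0179). All 10 body libraries lay above 18.2, the highest of the other 4 brain libraries, and 8 lay above all 6.

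The HOXD span (chr15:81893997-81990026) held 160 ± 29.3 (SD, n = 5) in the body and 82.8 ± 53.9 (SD, n = 3) in the brain, a ratio of 1.93 (difference 77.2, exact permutation p = 0.0357). Body libraries ranged from 125 to 225 and brain libraries from 18.9 to 183, so the groups overlapped through the hypothalamus of P348. The call was lost when any of 3 libraries was left out, with an exact p of 0.0536 without the liver or the spleen of P348 and of 0.143 without the hypothalamus of P350, and with stricter q-value limits (0.01 and 0.0001) the exact p was 0.125 and 0.518. By the number of peaks in the span per 100000 peaks of the library the difference was 5.39 and the exact p 0.0536.

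The HOXA span (chr18:45373340-45480306) held 180 ± 109 (SD, n = 5) and 69.5 ± 50.1 (SD, n = 3), a ratio of 2.59 that the test did not separate (difference 111, exact permutation p = 0.161). Skeletal muscle carried much of the body spread, with 319 and 421 against 75.9 to 186 in the other 8 body libraries. The number of peaks in the span per 100000 peaks of the library, in place of their bases, gave a difference of 7.55 (exact p = 0.0357).

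The HOXC span (chr5:19151096-19268267) held 108 ± 21.4 (SD, n = 5) and 68.4 ± 14.3 (SD, n = 3), a ratio of 1.58 (difference 39.7, exact permutation p = 0.0536). The exact p was 0.0357 with a q-value limit of 0.01 and 0.0179 when all lists were cut to the same number of peaks. A value of 0.0357 was also found without the muscle of P350, without the spleen of P348 or without the hypothalamus of P348. Without the hypothalamus of P348 and the cerebellum of P350, the differences were 146, 121, 55.9 and 96.5 for HOXA, HOXB, HOXC and HOXD, and 10, 10, 9 and 10 of the 10 body libraries lay above the other 4 brain libraries. Among 20568 genome windows of 116069 bp that hold a peak, 1.54% had all 10 body libraries above those 4 brain libraries. The pair left out was chosen by HOX values and not by those windows, so this share is not a like background.

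Gene by gene, 22 of the 36 HOX genes were higher in body than in brain tissues and 0 were lower (limma with Benjamini-Hochberg adjustment over 19001 genes, adjusted p under 0.05), with 0 lower also at an unadjusted p under 0.05. The background was high, since 37.1% of all genes were higher by the same rule and 7.87% lower. The median difference was 1.29 on the log2 scale over the 36 HOX genes and 0.47 over all genes tested, and 30 of the 36 lay above the latter. All 36 genes passed the filter of a peak in at least 2 libraries, and none lacked a peak in every library. Each log2 value is a difference of log2(peak bases per Mb + 1), which understates the change of genes with few peak bases. Where many libraries of a group are at 0, the size of the value depends on the number added.

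**Figure D2:**
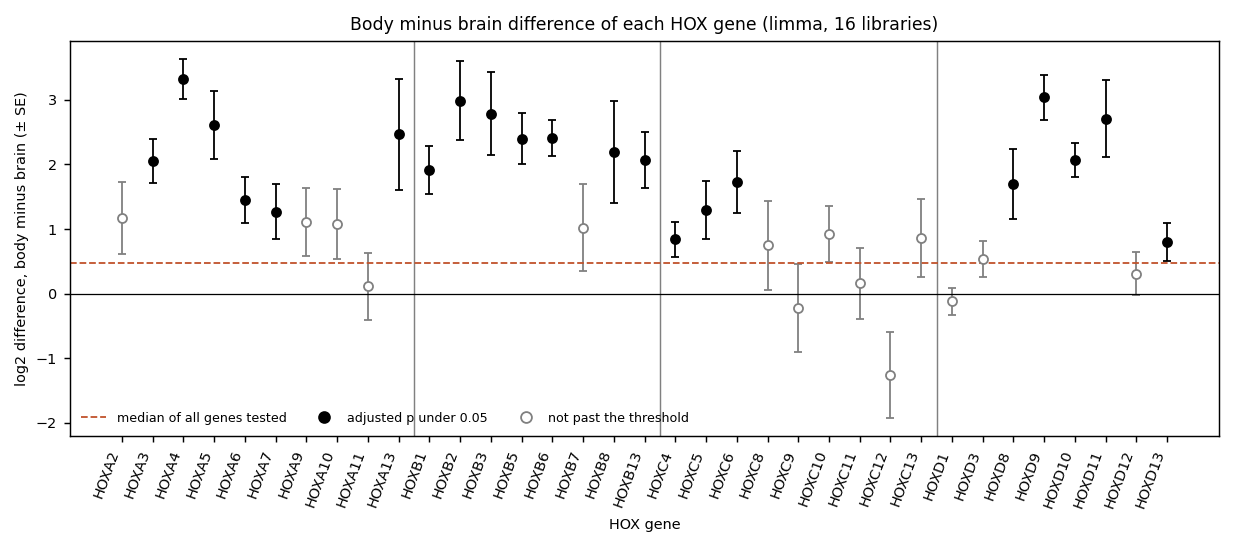
Difference between body and brain tissues for each HOX gene shown (horizontal axis) on the log2 scale with its standard error (vertical axis), filled where the adjusted p was under 0.05. HOXB genes lie above the dashed median of all genes (0.47) throughout, while HOXC9, HOXC12 and HOXD1 lie below 0.

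The calls were spread unevenly. In HOXB 7 of 8 genes were higher (median 2.30), in HOXA 7 of 11 (median 1.27), in HOXD 5 of 8 (median 1.25) and in HOXC 3 of 9 (median 0.84). Some windows share bases, so neighbouring calls are not separate evidence. The long annotated gene of HOXA3 contains the windows of HOXA4, HOXA5 and HOXA6 whole, HOXD9 contains that of HOXD10, and 17 pairs of windows overlap in all. With the share of each window covered by peaks, which does not scale by list length, 14 HOX genes were higher, against 19.1% of all genes higher and 8.36% lower, and the medians were 1.21 for HOX genes and 0.24 for all genes. Within 1 kb of the start codon 11 of 34 HOX genes tested were higher, against 19.8% of all genes, a window added after the data were seen. With the 8 tissue means as the unit 0 HOX genes and 0 of all genes passed, with 18 HOX genes and 3211 of all genes at an unadjusted p under 0.05 and a smallest HOX adjusted p of 0.11. Without the pair of brain libraries set aside for its HOX values, 24 HOX genes were higher, against 45.1% of all genes, which is given as a description.

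No HOX gene had all 10 body libraries above all 6 brain libraries, where 0.947% of all genes did. Against the other 4 brain libraries there were 9 such HOX genes, HOXA3, HOXA4, HOXA5, HOXA13, HOXB2, HOXB3, HOXB8, HOXD9 and HOXD11, where 2.34% of all genes did. The pair left out was chosen for its high HOX values, so the count of 9 is partly fixed by that choice. The share of all genes is therefore not a like background for it.

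**Figure D3:**
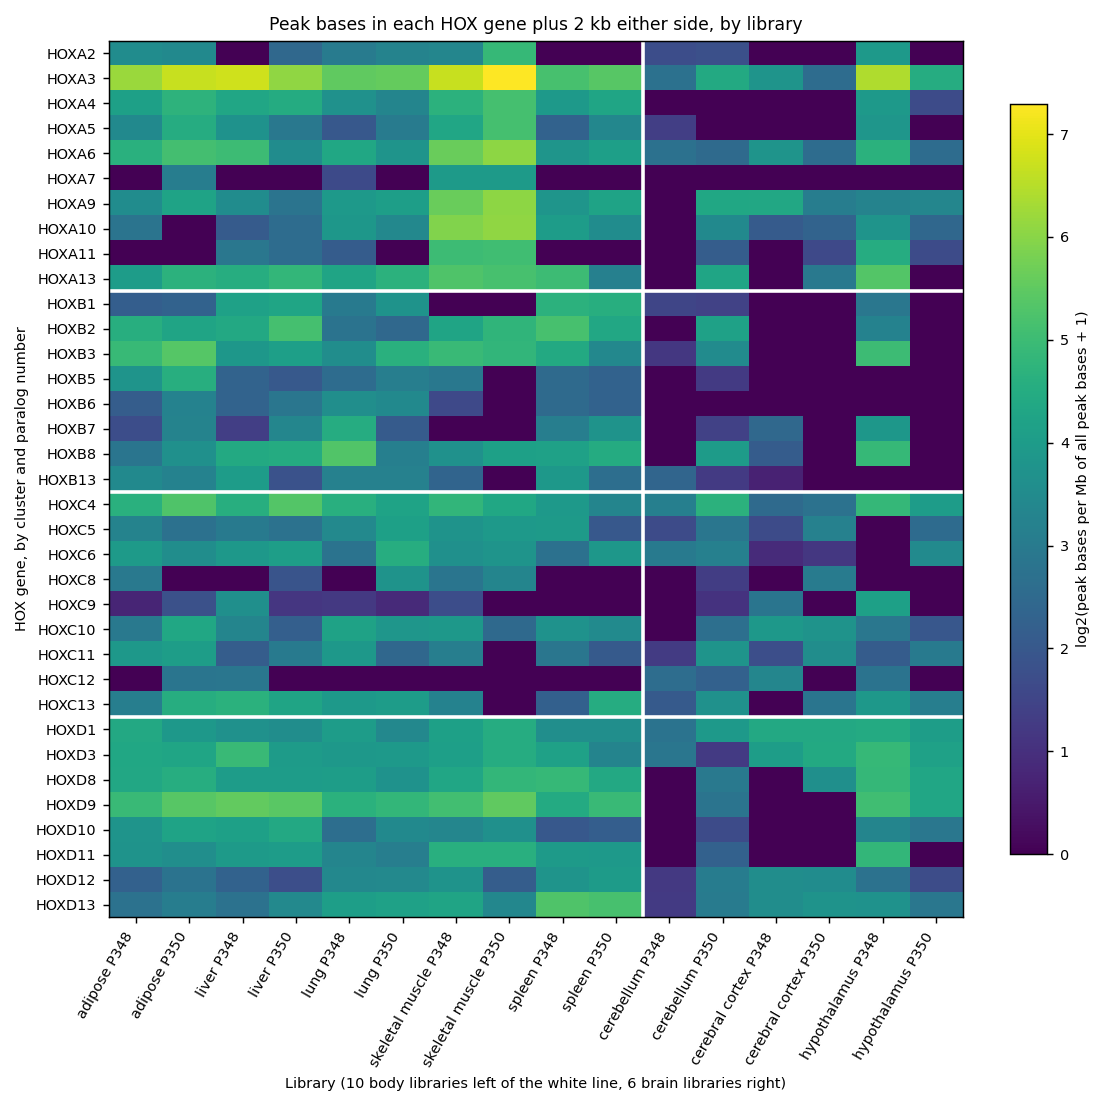
Level of each HOX gene shown (rows, by cluster and paralog number) in each library (columns) as log2(peak bases per Mb + 1), with body libraries left and brain libraries right of the white line. HOXA7 and HOXB6 are at 0 in all 6 brain columns, and at least 4 of the 6 are at 0 for HOXA4, HOXA5, HOXB2, HOXB5, HOXC8 and HOXD11.

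In HOXA the 3 genes furthest apart were HOXA4, HOXA5 and HOXA13. HOXA4 acts in the neck and upper trunk. It had 8.94, 18.7 and 34.4 peak bases per Mb (lowest, median and highest of 10) in body libraries and 0, 0 and 14.2 in brain libraries. All body libraries had a peak, and in the brain only the hypothalamus libraries did. The log2 difference was 3.33 ± 0.31 (SE, limma, adjusted p = 8.83e-05) and 3.71 without the pair of libraries set aside. Most brain libraries were at 0, and the HOXA4 difference was 1.82 with 5 and 4.90 with 0.2 added before the log in place of 1. HOXA5, which takes part in lung development, had 2.99, 9.73 and 34 in the body and 0, 0 and 13.2 in the brain. Its difference was 2.61 ± 0.53 (SE, adjusted p = 0.00366). Of the brain libraries only the hypothalamus of P348 (13.2) and the cerebellum of P348 (1.57) had a peak there. HOXA13, the last gene of the cluster, which patterns the digits and the urogenital and hindgut ends, had 8.01, 24.7 and 37.8 in the body and 0, 3.39 and 39.9 in the brain. The highest brain value, again the hypothalamus of P348, exceeded all body values. The log2 difference was 2.47 ± 0.86 (SE, adjusted p = 0.0368), and the call was lost under 15 of 28 other settings.

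HOXA3, HOXA6 and HOXA7 were also higher in the body. HOXA3 is the gene with the longest window, 50262 bp, and with the most peak bases, 77.4 ± 36.5 (SD, n = 5 tissues) against 25.1 ± 24.5 (SD, n = 3). HOXA7 had no peak in any of the 6 brain libraries and a peak in 4 body libraries, both of muscle (14.8 and 14.6), adipose of P350 (7.5) and lung of P348 (2.14). HOXA2, HOXA9, HOXA10 and HOXA11 did not pass, with log2 differences of 1.17, 1.11, 1.08 and 0.11 and SE of 0.52 to 0.56.

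In HOXB the 3 furthest apart were HOXB2, HOXB3 and HOXB6. HOXB2 acts in the hindbrain. Body libraries had 4.52, 19.8 and 34.8 peak bases per Mb (lowest, median, highest) in its window, and brain libraries 0, 0 and 16.9. The log2 difference was 2.99 ± 0.61 (SE, adjusted p = 0.00395). Only the pair of brain libraries set aside had a peak there, and the other 4 were at 0. HOXB3 showed the same contrast with more overlap, 9.65, 22.3 and 40.6 in the body and 0, 0.642 and 31 in the brain (log2 2.79 ± 0.64 SE, adjusted p = 0.00678). The HOXB3 call was lost at a q-value limit of 0.01 (log2 0.69, adjusted p = 0.527), with lists of the same number of peaks (2.46, adjusted p = 0.0737) and around the start codon (0.50, adjusted p = 0.506). Around the start codon HOXB2 did not pass either (0.74, adjusted p = 0.289). HOXB6 had no peak in any brain library and a peak in 9 of 10 body libraries, up to 11.1, with muscle of P350 at 0 (adjusted p = 0.000259). A fold is not given for it, since the fitted value against a group at 0 depends on the pseudocount. HOXB5, whose window shares 3899 bp with that of HOXB6, had a single brain library with a peak, the cerebellum of P350 at 1.38. HOXB1, HOXB8 and HOXB13 also passed, and HOXB7 did not (log2 1.02 ± 0.67 SE).

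In HOXC only the 3 genes at the 3′ end passed, HOXC6, HOXC5 and HOXC4. HOXC6, which marks the upper thorax, had 5.63, 13.2 and 22.4 in the body and 0, 4.08 and 10.2 in the brain (log2 1.73 ± 0.48 SE, adjusted p = 0.0145). HOXC5 had 3.01, 9.15 and 16.6 against 0, 3.51 and 8.23 (log2 1.30 ± 0.45 SE, adjusted p = 0.0366). HOXC4 had 9.05, 22.9 and 39.4 against 4.74, 11.7 and 27.8 (log2 0.84 ± 0.27 SE, adjusted p = 0.026). The groups overlapped for all 3, and the HOXC5 and HOXC4 calls were lost under 17 and 8 of 28 other settings. From HOXC8 to HOXC13, 0 of 6 genes passed, with log2 differences from -1.26 to 0.92. HOXC12 was the member that leaned most towards the brain. It had a peak in 4 of 6 brain libraries (5.15, 3.78, 9.16 and 5.88) and in 2 of 10 body libraries (6.2 in adipose of P350 and 6.22 in liver of P348), and the difference did not pass (-1.26 ± 0.67 SE, adjusted p = 0.137). With a q-value limit of 0.0001, where 30 HOX genes could be tested, HOXC11 was lower in the body, the single such call under any setting.

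In HOXD the 3 furthest apart were the neighbours HOXD9, HOXD11 and HOXD10, genes of the lower trunk and limb. HOXD9 had 21, 31.5 and 45.2 in the body and 0, 3.01 and 32.4 in the brain (log2 3.04 ± 0.35 SE, adjusted p = 0.000259). Cerebellum of P348 and both cortex libraries had no peak in its window, and the hypothalamus libraries had 32.4 and 19.1. HOXD11 had 7.67, 14.4 and 23.3 against 0, 0 and 27.3, with 4 of 6 brain libraries at 0 (log2 2.71 ± 0.60 SE, adjusted p = 0.00587). HOXD10 had 3.02, 10.9 and 20 against 0, 1.1 and 9.03 (log2 2.07 ± 0.27 SE, adjusted p = 0.000463). HOXD8 and HOXD13 also passed.

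Both ends of HOXD had peaks in every library, at HOXD1 and HOXD3 on the 3′ side and at HOXD12 and HOXD13 on the 5′ side. HOXD1 had 14.2 ± 3.64 peak bases per Mb in body tissues (SD, n = 5) and 16.2 ± 5.54 in brain tissues (SD, n = 3), a log2 difference of -0.12 ± 0.21 (SE, adjusted p = 0.648). In cortex it reached 20.3 in both animals, near the highest body value of 21.7. HOXD3 had 17.4 ± 3.88 (SD, n = 5) and 14.9 ± 9.9 (SD, n = 3), with 0.54 ± 0.28 (SE, adjusted p = 0.129). HOXD12 had 7.87 ± 4.18 (SD, n = 5) and 6.4 ± 3.85 (SD, n = 3), with 0.31 ± 0.34 (SE, adjusted p = 0.453). HOXD13 was higher in the body by 0.80 ± 0.29 (SE, adjusted p = 0.0431). A difference between the ends and the middle of the cluster was not tested.

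**Figure D4:**
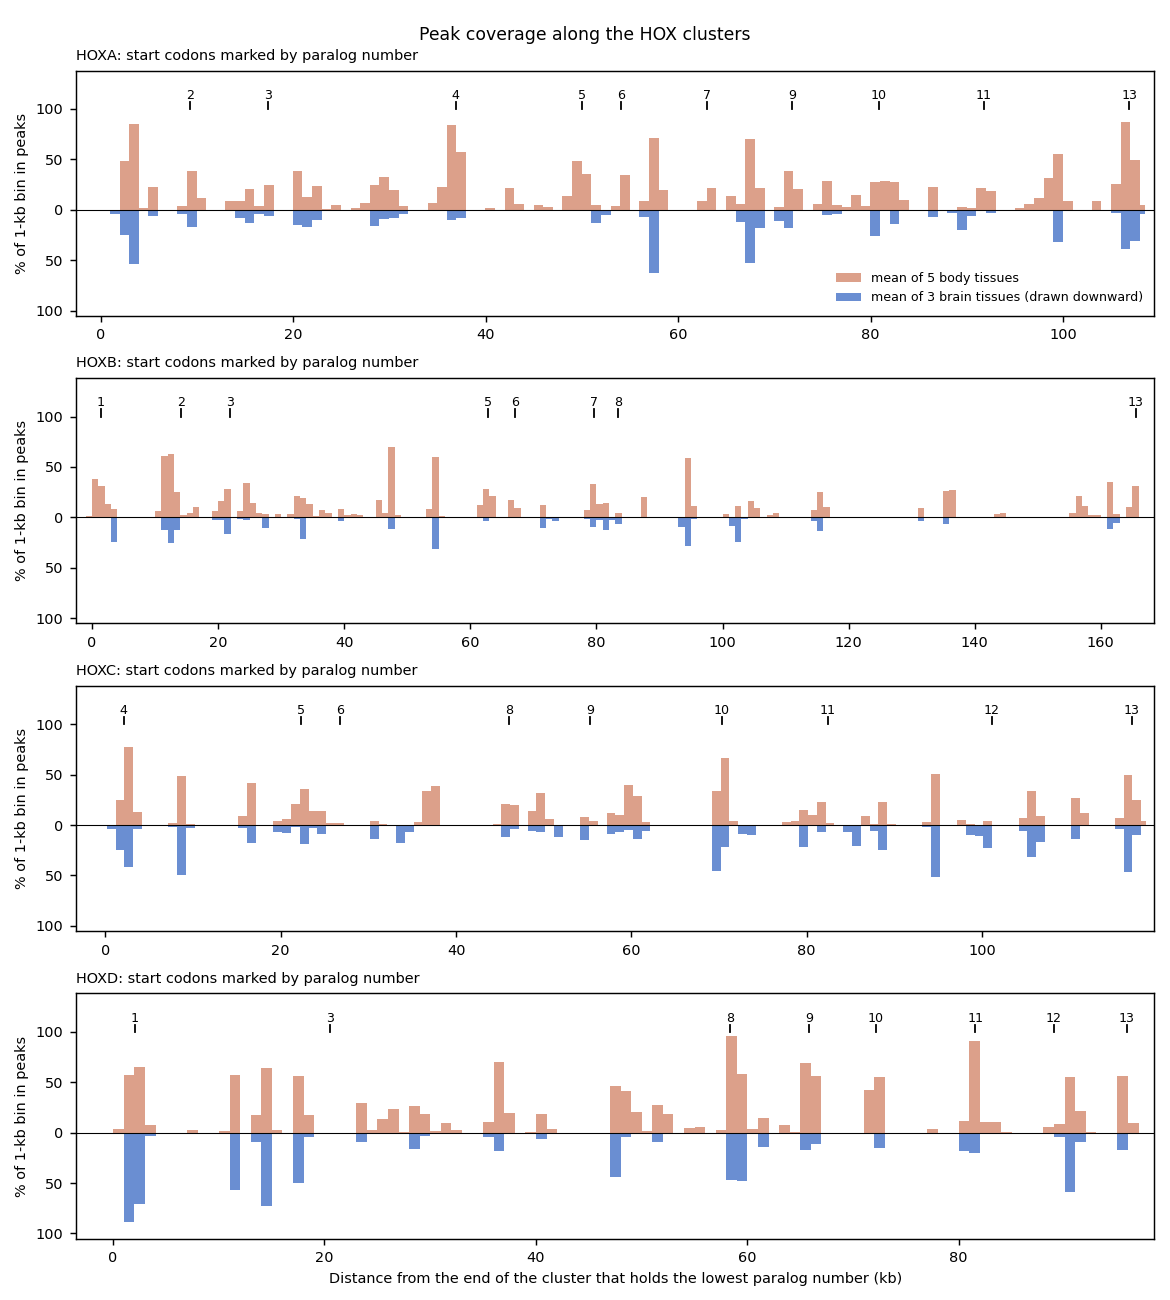
Share of each 1-kb bin that lies in peaks (vertical axis, percent), mean of 5 body tissues upward and of 3 brain tissues downward, against distance from the end of the cluster with the lowest paralog number. Ticks mark start codons by paralog number, and the brain has peaks at HOXD1 in all 6 libraries but none in the windows of HOXA7 and HOXB6.

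Genes were then ordered by paralog number, which broadly follows the axis from head to tail. The ratio of body to brain was highest for paralogs 5 and 2 and lowest for paralog 12. Levels were compared per kb of window, pooling the genes of a number over the clusters. Paralog 5 had 1.36 ± 0.531 peak bases per Mb per kb in body tissues (SD, n = 5) and 0.305 ± 0.0945 in brain tissues (SD, n = 3), a ratio of 4.45. Paralog 2 had a ratio of 3.85, paralog 6 of 3.22 and paralog 7 of 3.2. Paralog 12, with HOXC12 and HOXD12 only, was the single number with more in the brain, 0.767 ± 0.243 against 0.875 ± 0.375 (ratio 0.877). By groups of numbers, 11 of 13 central genes (4 to 8) were higher in the body, 5 of 8 anterior genes (1 to 3) and 6 of 15 posterior genes (9 to 13), where 37.1% of all genes were, with median log2 differences of 1.70, 1.54 and 0.92. A difference between these groups was not tested, and the groups draw on the clusters unequally. The HOXA3 window contains those of HOXA4, HOXA5 and HOXA6 whole, so paralog 3 and the anterior group share bases with the central group.

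To compare body tissues with each other, each was set against the mean of the other 4 in the same limma fit. Skeletal muscle differed most. In muscle 3 HOX genes were higher and 2 lower, 5 of 36, where 23.6% of all genes passed in either direction, so the share was below that of all genes. The 3 higher genes were HOXA7, HOXA10 and HOXA11, and the 2 lower were HOXB1 and HOXB6.

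**Figure D5:**
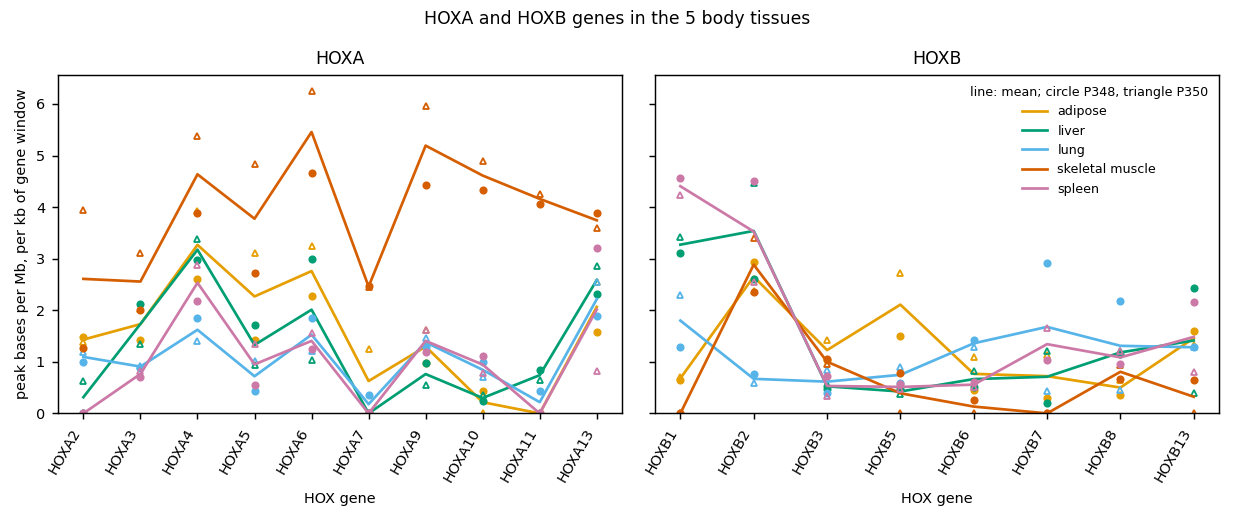
Peak bases per Mb per kb of gene window (vertical axis) for HOXA (left) and HOXB (right) genes in the 5 body tissues, with a line through the mean of the animals, circles for P348 and triangles for P350. Skeletal muscle lies above the other tissues from HOXA9 to HOXA11 and at 0 in HOXB1 and HOXB7.

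HOXA11, a gene of the forearm, lower leg and uterus, had 31.2 and 32.6 peak bases per Mb in the muscle of P348 and P350. The other body libraries had 0 in both adipose and both spleen libraries, 6.42 and 4.95 in liver, and 3.34 and 0 in lung. Both muscle libraries thus lay far above the other 8 (log2 4.09 ± 0.79 SE, adjusted p = 0.00376). HOXA10 had 59.6 and 67.1 in muscle against at most 15.3 elsewhere in the body (log2 3.22 ± 0.83 SE, adjusted p = 0.0165). HOXA7 had 14.8 and 14.6 against at most 7.5 (log2 3.38 ± 0.64 SE, adjusted p = 0.00339). Most of the other body libraries were at 0 in HOXA11 and HOXA7, so these log2 values depend on the pseudocount. HOXA9, with 48.3 and 65.1 against at most 17.7, did not pass after adjustment (log2 2.07 ± 0.81 SE, adjusted p = 0.0887). HOXB1, the gene with the lowest paralog number in HOXB, had no peak in either muscle library. The other 8 body libraries had 3.51 to 24.8 in its window (limma, adjusted p = 0.00102). HOXB6 had 2.05 and 0 against 3.45 to 11.1 (log2 -2.00 ± 0.43 SE, adjusted p = 0.00649).

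Pooled by position, the posterior HOXA genes had 4.21 and 4.75 peak bases per Mb per kb in muscle and 0.758 to 1.41 in the other 8 body libraries. The anterior HOXA genes had 1.92 and 3.11 against 0.78 to 2.08. Most of the anterior bases are those of the HOXA3 window (50262 bp), which contains the windows of HOXA4, HOXA5 and HOXA6 whole. The anterior value is therefore in large part one of central HOXA sequence. HOXB13, the posterior end of HOXB, had 0.645 and 0 in muscle and 0.405 to 2.43 elsewhere in the body, and did not pass (log2 -2.01 ± 0.67 SE, adjusted p = 0.051). The muscle count was sensitive to single libraries, with 1 HOX gene without the muscle of P350 and 9 without either hypothalamus library. The muscle of P350 also had the shortest list of the 16 libraries.

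Spleen held 3 calls of 36 (6.37% of all genes passed), all with an adjusted p just under the threshold. HOXB1 had 24.8 and 23 in spleen against 0 to 18.6 in the other body libraries (log2 2.18 ± 0.56 SE, adjusted p = 0.044). HOXD13 had 37.9 and 34.9 against 5.75 to 18.2 (log2 1.73 ± 0.44 SE, adjusted p = 0.0432), so that both spleen libraries lay above all others. HOXD10 had 3.02 and 3.51 against 5.22 to 20 and was lower (log2 -1.62 ± 0.42 SE, adjusted p = 0.0444). These calls are fragile, with 0 or 1 left without any single library of adipose, liver, lung, muscle, spleen or cortex.

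Adipose, liver and lung had 0 HOX genes past the threshold (limma), with 4, 4 and 1 at an unadjusted p under 0.05, and 2.13%, 1.67% and 3.53% of all genes passed. In adipose HOXA10 had 5.95 and 0 (log2 -2.54 ± 0.83 SE, adjusted p = 0.145), and HOXB5 had 12.6 and 22.9 against at most 7.65 in the other body tissues (log2 1.95 ± 0.62 SE, adjusted p = 0.135). In lung HOXB6 had 11.1 and 9.97 (log2 1.40 ± 0.43 SE, adjusted p = 0.0862), and in liver HOXB1 had 16.9 and 18.6 (log2 1.66 ± 0.56 SE, adjusted p = 0.183). Stricter q-value limits raised these counts, to 9 in adipose at 0.01, where 11% of all genes passed. At 0.0001, where 30 HOX genes could be tested, they were 14, 10 and 8 in adipose, liver and lung, and 50.6%, 9.27% and 8.56% of all genes passed.

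Within the brain, cerebellum was set against the mean of the forebrain tissues, cortex and hypothalamus. Cerebellum alone does not stand for the hindbrain as a whole. No HOX gene was higher in cerebellum and 4 were lower, HOXA4, HOXD1, HOXD3 and HOXD13. Of the 19001 genes tested 917 were higher and 6967 lower, 41.5% in either direction. The share of HOX genes that were lower was thus below that of all genes. The median of all genes was -0.79, and 24 of the 36 HOX genes lay above it. HOXD3 had 6.29 and 1.35 in cerebellum, 15.7 and 20.7 in cortex and 28.6 and 17 in hypothalamus (log2 -2.34 ± 0.47 SE, adjusted p = 0.00517), with no overlap between the groups. HOXA4 had no peak in cerebellum or cortex and 14.2 and 2.2 in hypothalamus (adjusted p = 0.0479), a call that was lost under 21 of 27 other settings. HOXD1 had 5.8 and 14 against 15.6 to 21.2. HOXD13 had 1.36 and 7.26 against 6.39 to 12.5 (log2 -1.34 ± 0.49 SE, adjusted p = 0.0457). The cerebellum lists were the longest, 217308 and 207917 peaks. With all lists cut to the same number of peaks 6 HOX genes passed, against 26.9% of all genes, and the log2 difference of HOXD3 was -3.88 (adjusted p = 0.00198). Over the 36 HOX genes the median difference was -0.14, and the count was 1 without either spleen library, the cerebellum of P348 or the cortex of P350, 2 without any single library of the other 4 body tissues and 9 without the cerebellum of P350. By presence alone, 17 HOX genes had a peak in both cerebellum libraries, 13 in both cortex libraries and 18 in both hypothalamus libraries (47.2%, 36.1% and 50% of the 36), where 79.4%, 82.6% and 79.4% of all genes did. In both libraries of a body tissue 27 to 32 HOX genes had a peak (75% to 88.9%), where 77.8% to 85.6% of all genes did. Cortex had no peak in either animal over 12 genes, among them HOXB1, HOXB2, HOXB3, HOXB5 and HOXB6.

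Merging the peaks of all libraries gave 127 regions in the 4 spans, of which 85 were open in both animals of at least 1 tissue. Of these 83 were open in a body tissue (97.6%, against 70.8% of the 284109 such regions of the genome) and 33 in a brain tissue (38.8% against 68.6%). Regions open in all 5 body tissues numbered 19 (22.4% against 8.25%), and 3 were open in all 8 tissues (3.53% against 5.92%). Regions open in all 5 body tissues and in no brain library at all were rare in the genome, 90 in number, and 2 of them lay in HOX spans, those shown above at HOXA5 and HOXC6. Peaks in the HOXA5 region had folds of 2.16 to 5.22 over the background of their library and in the HOXC6 region of 2.55 to 4.53. Regions open in a brain tissue and in no body library numbered 2 (2.35% against 15.4% of the genome), both in HOXC and both in cerebellum. Regions open in both animals of cerebellum and of no other tissue made up 2.35% in the HOX spans against 16.4% in the genome. Regions open in both animals of skeletal muscle and of no other tissue made up 9 of the 27 in HOXA (33.3%), 0 of 22 in HOXB, 1 of 17 in HOXC and 2 of 19 in HOXD, against 7.32% in the genome. The muscle region printed above had the highest folds of these 12, 10.12 and 9.83, where the median fold over all peaks in HOX regions was 2.88.

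What peaks the brain had in the clusters lay mostly where body tissues had them too. Of the 54 HOX peaks of the hypothalamus of P348, 53 overlapped a peak of a body library (98.1%, against 87.3% of all its peaks). In the other brain libraries the share was 82.1% to 100% of HOX peaks and 60.8% to 80.2% of all peaks, lowest in the cerebellum of P348 for both.

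The clusters also hold microRNA genes, which were measured as the hairpin with 2 kb either side. miR-10a and miR-10b share their seed (bases 2 to 8, in capitals, read here as DNA from the genome), and so do the copies of miR-196a in HOXB and HOXC, which target HOX messages.

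ssc-miR-10a-5p (chr12:24833694-24833715, minus strand): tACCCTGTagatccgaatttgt

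ssc-miR-10b (chr15:81951653-81951674, plus strand): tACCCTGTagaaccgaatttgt

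ssc-miR-196a (chr12:24886364-24886385, minus strand): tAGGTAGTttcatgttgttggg

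ssc-miR-196a (chr5:19204463-19204484, plus strand): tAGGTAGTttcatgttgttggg

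ssc-miR-615 (chr5:19246820-19246840, plus strand): tCCGAGCCtgggtctccctct

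MIR10A, in HOXB, had 4.83, 8.47 and 14.4 peak bases per Mb (lowest, median, highest) in the 10 body libraries and 0, 0.642 and 2.27 in the 6 brain libraries, so the groups did not overlap. The same separation was found for 0.947% of the protein-coding genes tested. No base of the MIR10A hairpin lay in a peak. MIR10B, in HOXD, had 0, 7.81 and 23.2 in the body and 0, 0.0102 and 8.44 in the brain. MIR196A-1 in HOXB had a peak nearby in 3 body and 2 brain libraries, and MIR196A-2 in HOXC in none. MIR615, in HOXC5, had 2.67 to 14.7 in the body and 0 to 8.23 in the brain. These genes were not part of the limma fit, which held protein-coding genes only.

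The nearest protein-coding genes outside the clusters were measured in the same fit. LOC106506836, a neighbour of the HOXA cluster, had 12.4 peak bases per Mb in the body and 0.468 in the brain (log2 3.24 ± 0.30 SE, adjusted p = 9.1e-05). EVX1, a homeobox gene 42136 bp beyond HOXA13, did not pass (0.64 ± 0.58 SE, adjusted p = 0.366), and EVX2, 9003 bp beyond HOXD13, was higher in the body (1.10 ± 0.38 SE, adjusted p = 0.0374). Beyond the HOXB ends SKAP1 (1.80), TTLL6 (1.24) and CALCOCO2 (1.44) were higher and SNX11 was not (-0.34, adjusted p = 0.249). Around HOXA, HIBADH (1.30) and SKAP2 (0.86) were higher. Around HOXC, SMUG1 and CBX5 were higher by 0.61 each, and ATP5G2 (0.35) and CALCOCO1 (0.43) did not pass. Around HOXD, MTX2 (0.54) and HNRNPA3 (0.43) were higher and LNPK (0.40) did not pass. Of the 16 neighbours 11 thus passed and were higher, where 37.1% of all genes were.

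Genes that work with or on the HOX clusters were counted from lists, to be read against the 37.1% of all genes that were higher in the body and the 7.87% that were lower. Of 9 TALE cofactors, which bind DNA together with HOX proteins, PBX4 (0.86) and PBX3 (0.78) were higher in the body and MEIS2 was lower (-1.43 ± 0.32 SE, adjusted p = 0.00557), with a list median of 0.37. Of 8 retinoic acid and CDX regulators measured, RARA (1.30) and CDX1 (1.17) were higher. CDX4 had 0 in every body library and a mean of 5.83 in brain tissues (adjusted p = 0.000308). RARG, CYP26B1 and CYP26C1 were not analysed here. Of 22 Polycomb and Trithorax genes 11 were higher and 0 lower, led by EZH1 (1.48), KMT2A (1.33) and MEN1 (1.01), with a median of 0.61 near that of all genes. Of 16 homeobox genes of the forebrain and midbrain, such as OTX2 and EMX2, 0 passed in either direction (limma, with 4 at an unadjusted p under 0.05, median 0.19). Among markers of other cell types, 3 of 7 fibroblast genes were higher (COL1A1 by 1.56 and TWIST2 by 1.27 among them) and LUM was lower (-1.58). PECAM1 of 5 endothelial genes was higher (1.88) and KDR lower (-0.45), and 3 of 5 leukocyte genes were higher, ITGAM by 2.71, CD3E by 2.66 and CD79B by 1.76. Of 4 neuron genes STMN2 (-0.93) and SNAP25 (-0.73) were lower and RBFOX3 was higher (2.16). The leukocyte list thus moved with the HOX genes, and its part in the HOX contrast was not tested.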

How the data were processed

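Chromatin accessibility was measured in 16 pig libraries, 8 tissues from each of 2 animals. The authors trimmed reads with Trim Galore 0.4.5, aligned them with BWA 0.7.17 and processed them with SAMtools 1.10 and Picard 2.18.17 (the submitters' processing notes), and called peaks per library with MACS2 in broad mode at a q-value of 0.05 on Sscrofa11.1. The study describes this trimming and alignment for its ChIP-seq reads. A shift of reads for the transposase is not stated in the sources read here, and the study's own read numbers per library were not used. Each deposited peak carries a score, a fold enrichment over local background (a ratio), and a p-value and q-value as −log10, all made by the authors' caller. Not every deposited peak has a listed q-value under 0.05, and the share differs by library. In spleen of P350 88823 of 104299 peaks did, and in muscle of P350 98421 of 99960. The main values use all peaks of a list. Cattle lists of the series were not used here.

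Peak bases in each protein-coding gene with 2 kb either side were divided by all peak bases of the library and tested as log2(value + 1) with limma 3.58.1 in R 4.3.3 over 19001 genes with a peak in at least 2 libraries, with the 8 tissues as groups and Benjamini-Hochberg adjustment at 0.05. The body and brain values of a contrast are means of tissue coefficients. Spans were tested by exact permutation over tissues. The limma p-values measure the spread between the 2 animals within a tissue and not that among the tissues of a group. The permutation p-values measure the spread between tissue means. The samples of both groups come from the same 2 littermates, so neither covers unrelated animals. Same-animal samples are paired by the labels, and their deviations correlated by -0.003 on average (-0.167 to 0.105 over 28 tissue pairs). Files were handled in Python 3.11.15 with numpy 2.4.6 and pandas 2.3.3. Tested on simulated data for body against brain (19001 genes), 177 of 200 changed genes were called and 12 unchanged genes. The effect of spread among the tissues of a group on the number of false calls was not tested. With tissues as the unit, 0 genes passed in the real data.

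Members and lists were chosen with earlier results of these data known. Genes named with full values were, per cluster, up to 3 with the largest body to brain difference past the threshold, up to 2 per tissue contrast, the 2 nearest genes on each side of a cluster and up to 3 per list. Other HOX genes were named after their values were seen. Alternatives were other pseudocounts, filters, q-value limits, lists cut to 99960 peaks by score, gene bodies, the covered share, peak numbers, tissue means, the animal as a block and each library left out. The window around the start codon and the removal of 2 brain libraries were chosen after seeing the data. Values of 1 HOXA gene, which stays in the counts and spans, are not reported here.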

Additional observations from a re-analysis of the deposited data

Results flagged for a closer look

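The 4 spans and every HOX gene reported were examined in the 10 body and the 6 brain libraries, leaving out groups at 0 throughout. In 17 of 76 such groups 1 library lay far from the others, and neighbouring windows share bases. The groups mix tissues and many hold values of 0, so this count cannot be set against a chance rate. A lone peak among libraries at 0 is flagged whatever its size, as in HOXB5. In 11 of the 17 it was the hypothalamus of P348, above the other brain libraries. Its values there were 202 peak bases per Mb in the HOXA span, 14.2 in HOXA2, 84.8 in HOXA3, 14.2 in HOXA4, 13.2 in HOXA5, 22 in HOXA11, 6.36 in HOXB1, 31 in HOXB3, 13.6 in HOXB7, 16.8 in HOXC9 and 27.3 in HOXD11. Of its 54 peaks in the spans, 53 overlapped a peak of a body library. Among brain libraries the cerebellum of P348 stood apart in HOXB13 (4.16), that of P350 in HOXB5 (1.38) and the cortex of P350 in HOXC8 (7.25). Among body libraries the muscle of P350 did in HOXA2 (28.7), the lung of P348 in HOXB8 (38.5) and the liver of P348 in HOXC9 (11.3). The cause was not tested.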

How the results depend on the processing

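The number of HOX genes higher in body than brain was 14 with the covered share, 11 of 34 around the start codon, 0 with tissues as the unit and 15 to 23 with 1 library left out, and 1 HOX gene was lower at a q-value under 0.0001 (0 with any 1 library left out). The cause of these changes was not tested. For adipose the count was 1 with a pseudocount of 5, equal lists, gene bodies or the start codon, 9 and 14 at q-values under 0.01 and 0.0001, and 0 to 1 with 1 library left out (1 without muscle of P348 or either cerebellum library). For liver it was 10 at 0.0001, 1 with gene bodies, 2 at the start codon and 0 to 1 with 1 left out (adipose P348 or either hypothalamus library). For lung it was 1 with a pseudocount of 5, at 0.01, with the covered share or the start codon, 8 at 0.0001 and 0 to 1 with 1 left out (muscle P348). Of all genes 11% passed for adipose and 3.04% for lung at 0.01. At 0.0001, where 30 HOX genes could be tested, 50.6%, 9.27% and 8.56% of all genes passed for adipose, liver and lung. For muscle it was 8 with a pseudocount of 5, at 0.01 or with gene bodies, 15 at 0.0001 and 1 to 9 with 1 left out. Of all genes 17.3% passed for muscle at 0.01 and 27.3% at 0.0001, the latter with 30 HOX genes tested. For spleen it was 0 with a pseudocount of 0.2, equal lists or gene bodies. It was 1 with no filter, the covered share or the start codon, and 0 to 3 with 1 left out. At 0.0001 the spleen count was 13 of 30 tested, where 12.6% of all genes passed. The HOXB1 difference of spleen turned to -1.01 at 0.01. For cerebellum it was 2 with a pseudocount of 5, no filter, at 0.01 or with the covered share, 8 without the 2 brain libraries and 1 to 9 with 1 left out. Of all genes 33.3% passed for cerebellum at 0.01. With the animal as replicate block, 20 HOX genes were higher in the body, spleen had 1 and cerebellum 2, muscle had 7, and no other call count or span value changed.

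Span differences were 7.55 for HOXA and 5.39 for HOXD by peak number, 82.4 and 69.9 for HOXC at 0.01 and with equal lists and 55.9 without the 2 brain libraries, and 91.8 and 46.7 for HOXD at 0.01 and 0.0001. With 1 library left out they were 85.6 to 136 for HOXA, 79.6 to 111 for HOXB, 30.2 to 49.3 for HOXC and 62.9 to 91.4 for HOXD. Sequencing depth, which the study lists per library, was not weighed against these values. With 2 related animals, nothing here covers variation between unrelated pigs.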
